A study of Mus musculus with 48 samples.

Results

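The pair of miR-103 and miR-107 consists of mmu-miR-103-3p and mmu-miR-107-3p, 2 of the 563 mature miRNAs counted in germ cells and somatic cells of mouse fetal ovaries. The pair was chosen by name, with earlier results of these data known, among them high values of miR-107-3p in somatic cells of the control lineage. Values of exposed against control somatic cells are therefore given as a description, with no test. Both members were found, miR-103-3p in 48 of 48 libraries and miR-107-3p in 47 of 48.

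The animals were wild-type CD1 mice, and female gonads were collected at embryonic day 13.5. Pregnant founders drank water with mono-(2-ethylhexyl) phthalate (MEHP, 35 mg daily per kg body weight), with vinclozolin (VZN, 50 mg daily per kg body weight) or with vehicle alone (Control). All 3 lineages received the solvent, DMSO at 0.3% by volume, and exposure covered the first 13 days of pregnancy. MEHP is a metabolite of a phthalate plasticiser and vinclozolin a fungicide with anti-androgenic activity. F1 embryos were exposed in the uterus, F2 and F3 embryos descend from them, and F2Sy denotes a second generation for which both parents belonged to the lineage. Pools of about 80 gonads, freed of mesonephros, were separated with anti-CD15 magnetic beads into primordial germ cells (PGC), stained as 93 to 96% pure, and somatic cells (SC), over 90% pure. Each of the 24 groups, formed by 2 fractions, 3 lineages and 4 generation classes, has 2 libraries. The labels do not say whether these came from separate pools of animals, so p-values measure a spread between libraries that may be technical.

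miRNAs guide Argonaute proteins to messenger RNAs that pair with the seed, bases 2 to 8 of the mature strand, and lower the output of those messengers. miR-103 and miR-107 lie in introns of pantothenate kinase genes, whose products start the synthesis of coenzyme A. In mouse liver and fat the pair is known to dampen insulin signalling through caveolin-1, and in human breast cancer cells it represses Dicer, the enzyme that cuts miRNA precursors. In human colon cancer cells miR-107 is induced by the tumour suppressor p53. Both belong to the AGCAGC group (miR-15, miR-16, miR-103, miR-107 and their relatives), whose mature strands share the letters AGCAGC near the 5′ end.

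The mature sequences of the pair are shown because its members differ at a single base near the 3′ end. They are from RefSeq (build GRCm38.p6), 5′ to 3′, with the seed in capitals.
mmu-miR-107-3p: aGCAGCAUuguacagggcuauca
mmu-miR-103-3p: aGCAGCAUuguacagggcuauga

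Both are 23 bases long and have the same seed. Counted from 1 at the 5′ end, the first 21 bases are shared and the one difference from miR-107-3p to miR-103-3p is C22G. A read that ends before base 22 cannot be told apart between the members, and the sources used here do not give the rule by which such reads were assigned.

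The other 7 members of the group that the table lists are shown, seed again in capitals, because AGCAGC starts at base 2 in each of them and at base 1 in the pair, which shifts the seed.
mmu-miR-15a-5p: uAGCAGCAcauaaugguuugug
mmu-miR-15b-5p: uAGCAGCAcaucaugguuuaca
mmu-miR-16-5p: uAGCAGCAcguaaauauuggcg
mmu-miR-195a-5p: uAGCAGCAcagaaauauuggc
mmu-miR-322-5p: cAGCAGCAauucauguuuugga
mmu-miR-497a-5p: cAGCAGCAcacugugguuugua
mmu-miR-503-5p: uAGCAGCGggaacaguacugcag

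miR-15a-5p, miR-15b-5p, miR-16-5p, miR-195a-5p, miR-322-5p and miR-497a-5p share the seed AGCAGCA, and the seed of miR-503-5p is AGCAGCG. The mature strands of the pair are cut from the hairpins below, in which both arms are in capitals, the 5p arm first.
Mir107: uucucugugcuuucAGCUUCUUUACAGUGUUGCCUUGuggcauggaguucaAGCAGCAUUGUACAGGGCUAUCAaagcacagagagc
Mir103-1: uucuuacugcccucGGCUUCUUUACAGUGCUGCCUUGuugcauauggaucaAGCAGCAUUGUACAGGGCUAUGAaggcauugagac
Mir103-2: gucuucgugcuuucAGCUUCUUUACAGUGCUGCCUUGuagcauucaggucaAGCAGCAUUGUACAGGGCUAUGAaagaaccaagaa

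Mir107 lies on the minus strand at chr19:34820687-34820773 (GRCm38) in Pank1, Mir103-1 on the plus strand at chr11:35782396-35782481 in Pank3, and Mir103-2 on the plus strand at chr2:131288052-131288137 in Pank2. Each hairpin is intronic in every annotated transcript of its host and on the host's strand. The 3p arms of both Mir103 hairpins are identical, so counts of miR-103-3p sum over 2 loci. The 5p arm of Mir107 is listed as miR-107-5p and gives a second readout of that hairpin. The 5p arms of the Mir103 hairpins were not analysed here.

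The deposited table holds whole-number read counts, and levels are given as CPM, each count scaled to the listed miRNA total of its library. Listed totals were 2932091 to 7946140 counts in PGC libraries and 7460020 to 11761600 in SC libraries. Of the table's 27024 cells 7089 are blank (26.2%) and none holds 0. A blank was left out and not read as 0. The summed level of 6 germ cell markers of the miR-290-295 cluster was 133637 to 233746 CPM in PGC and 2998 to 17474 CPM in SC. That of 7 gonadal somatic and mesenchymal markers was 8422 to 36021 CPM in PGC and 170658 to 238623 CPM in SC, so both fractions matched their labels.

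The pair was unequal in both fractions. miR-103-3p ranked 71 of 336 miRNAs by mean level in PGC and 54 of 397 in SC, counting miRNAs listed in at least 23 of a fraction's 24 libraries. miR-107-3p ranked 321 of 336 in PGC and 205 of 397 in SC. Both mature strands have the same length, but the ratio of their counts also depends on how reads ending before base 22 were assigned. A PGC library held 48.8 ± 9.23 counts of miR-103-3p per count of miR-107-3p (SD, n = 23 libraries; 27.6 to 67.6), and an SC library 18.3 ± 5.01 (SD, n = 24; 4.47 to 24.7). The ranges of this ratio did not overlap between the fractions.

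**Figure D1:**
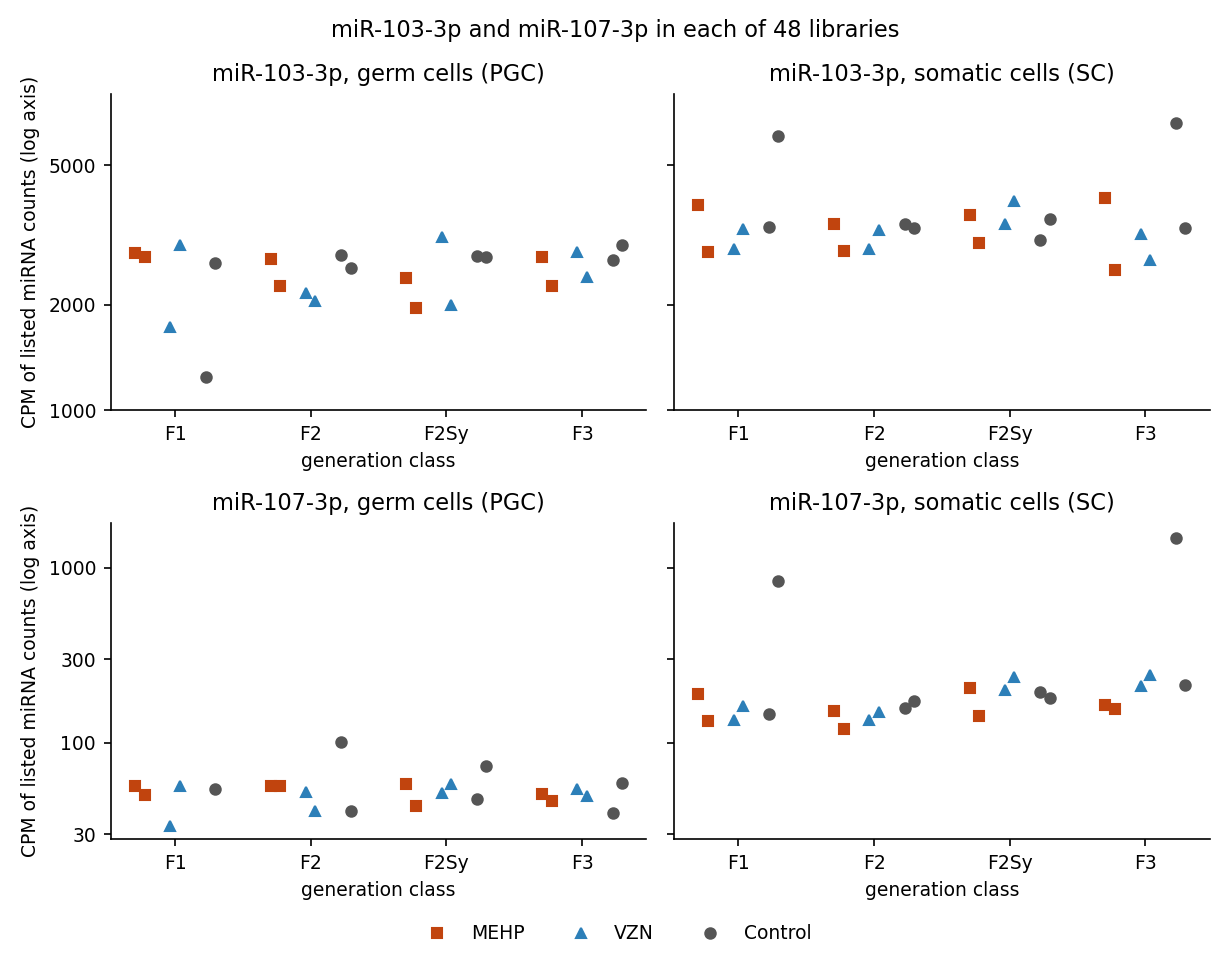
Level of miR-103-3p (top) and miR-107-3p (bottom) in CPM on a log axis, 1 point per library, by generation class, for PGC (left) and SC (right); colours and shapes mark the lineage. Between the fractions miR-107-3p does not overlap (33.5 to 100.6 CPM in PGC, 120 to 1478 CPM in SC), while miR-103-3p does; 2 control SC libraries stand above all others for both members.

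Germ cells carried less miR-107-3p than somatic cells in all 3 lineages, and for miR-103-3p the difference was smaller. In MEHP PGC libraries miR-107-3p stood at 56.3 and 50.3 CPM in F1, 56.9 and 56.5 CPM in F2, 58.1 and 43.7 CPM in F2Sy and 50.8 and 46.6 CPM in F3, each given as library 1 and library 2. In MEHP SC libraries it stood at 190 and 132 CPM in F1, 151 and 120 CPM in F2, 204 and 141 CPM in F2Sy and 163 and 157 CPM in F3. Every MEHP SC library was above every MEHP PGC library.

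In VZN PGC libraries miR-107-3p was at 33.5 and 56.4 CPM in F1, 52.3 and 40.8 CPM in F2, 51.3 and 58.0 CPM in F2Sy and 54.2 and 49.4 CPM in F3. In VZN SC libraries it was at 135 and 161 CPM in F1, 135 and 150.2 CPM in F2, 198 and 236 CPM in F2Sy and 210.3 and 245 CPM in F3. Here too the fractions did not overlap, and the 4 VZN SC libraries of F2Sy and F3 were the highest of their 8.

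In control PGC libraries miR-107-3p was blank in library 1 of F1 and stood at 54.3 CPM in library 2, at 100.6 and 40.6 CPM in F2, 47.4 and 73.9 CPM in F2Sy and 39.6 and 58.8 CPM in F3. In control SC libraries it stood at 145 and 833 CPM in F1, 157 and 172 CPM in F2, 194.9 and 181 CPM in F2Sy and 1478 and 212 CPM in F3. Library 2 of control SC F1 and library 1 of control SC F3 lay far above the other 22 SC libraries, which ranged from 120 to 245 CPM.

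As a mean over the 4 generation classes, miR-107-3p was lower in PGC than in SC by a log2 fold change of -1.48 ± 0.29 in the MEHP lineage, -1.77 ± 0.29 in the VZN lineage and -2.43 ± 0.34 in controls (SE). It passed the test in both exposed lineages, with edgeR quasi-likelihood, Benjamini-Hochberg adjusted p-values of 3.04e-05 in MEHP and 2.69e-06 in VZN. The control value holds the high control SC libraries that were known when the pair was chosen, and is given with no p. These fits used 47 libraries, since library 1 of control PGC F1 has no value. Without the 2 high control SC libraries the control value was -1.49 ± 0.18. It is also given with no p, since those libraries were picked by their values of this miRNA. Whether the lineages differ in this step was not tested. Of the 254 miRNAs in the fit, 43.3% were lower in PGC in the MEHP lineage, 41.3% in the VZN lineage and 42.1% in controls, so a fall in germ cells was common among all miRNAs. In 30.7% of the 254 every PGC library lay below every SC library, as for miR-107-3p.

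In MEHP PGC libraries miR-103-3p stood at 2803 and 2730.2 CPM in F1, 2697 and 2264 CPM in F2, 2382 and 1959 CPM in F2Sy and 2732 and 2258 CPM in F3. In MEHP SC libraries it stood at 3857 and 2816 CPM in F1, 3387 and 2847 CPM in F2, 3608 and 2997 CPM in F2Sy and 4035 and 2503 CPM in F3. The fractions overlapped through 1 library, library 2 of MEHP SC F3, which lay inside the PGC range.

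In VZN PGC libraries miR-103-3p was at 1725 and 2954 CPM in F1, 2164 and 2048 CPM in F2, 3118 and 1991 CPM in F2Sy and 2819.5 and 2395 CPM in F3. In VZN SC libraries it was at 2874 and 3281 CPM in F1, 2875 and 3274 CPM in F2, 3399 and 3939 CPM in F2Sy and 3182 and 2687 CPM in F3. Of the 8 VZN PGC libraries 3 reached the SC range.

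In control PGC libraries miR-103-3p stood at 1241 and 2636 CPM in F1, 2773 and 2536 CPM in F2, 2758 and 2734 CPM in F2Sy and 2679.8 and 2956 CPM in F3. In control SC libraries it stood at 3337 and 6061 CPM in F1, 3404 and 3307 CPM in F2, 3062 and 3519 CPM in F2Sy and 6606 and 3318 CPM in F3. Control PGC and SC did not overlap, and the 2 high SC libraries were those in which miR-107-3p was high.

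The log2 fold change of miR-103-3p in PGC over SC was -0.30 ± 0.16 in the MEHP lineage (SE; edgeR adjusted p = 0.0861), which did not pass. It was -0.37 ± 0.16 in the VZN lineage (edgeR adjusted p = 0.0398), which did. In controls it was -0.56 ± 0.16, and without the 2 high control SC libraries -0.32 ± 0.16. Both are given with no p, for the same reasons as for miR-107-3p. The VZN call was lost in 14 of 17 fits that each left out 1 library, with values from -0.37 to -0.16 in those 14, and with DESeq2 (-0.30, adjusted p = 0.0648). Over the 251 miRNAs of this fit, 42.6% were lower in PGC in the MEHP lineage, 42.6% in the VZN lineage and 42.2% in controls.

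Markers of other cells differed between the fractions as well. The summed level of 3 erythroid markers was 961 to 6686 CPM in PGC and 8778 to 86158 CPM in SC, and that of the endothelial miR-126a-3p 2271 to 11495 CPM in PGC and 16721 to 30782 CPM in SC. The summed level of 2 neural markers was 3906 to 7521 CPM in PGC and 79.7 to 649 CPM in SC. Leukocyte markers (158 to 368 CPM in PGC, 100.2 to 280.4 CPM in SC), muscle markers (at most 537 CPM in PGC and 77.9 CPM in SC) and the liver miRNA miR-122-5p (at most 44.1 CPM in PGC and 675 CPM in SC) overlapped. Their part in the levels of the pair was not tested. In such bulk fractions, fewer cells of a type and less RNA per cell cannot be told apart.

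**Figure D2:**
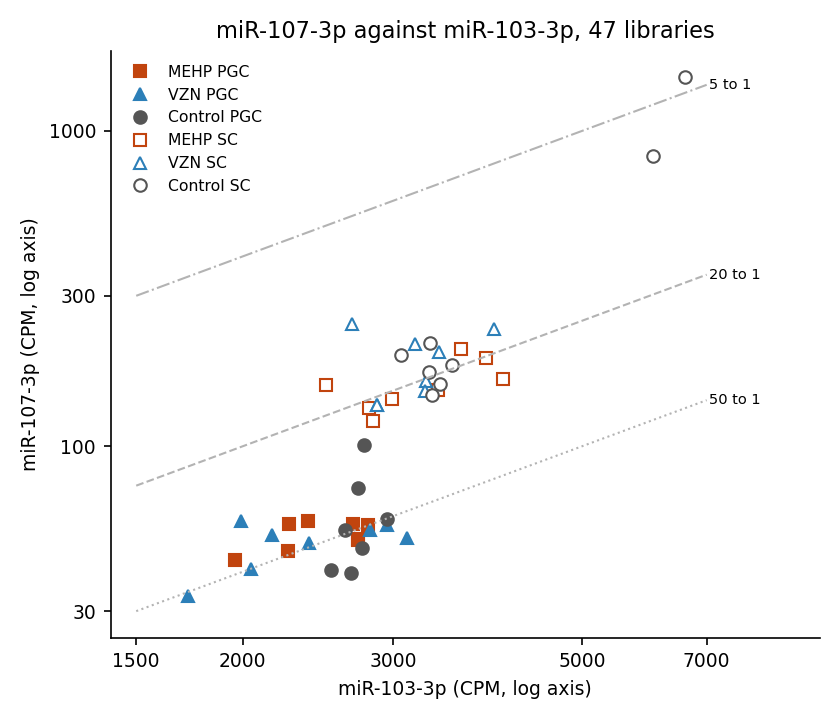
Level of miR-107-3p against miR-103-3p in CPM, both axes log, for the 47 libraries that list both; filled symbols are PGC, open symbols SC, and grey lines mark ratios of 50, 20 and 5 counts of miR-103-3p per count of miR-107-3p. PGC libraries scatter around a mean ratio of 48.8 and SC libraries around 18.3, and 2 control SC libraries lie apart at 4.47 and 7.28.

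By mean level of miR-107-3p, from low to high, the 6 conditions ranked VZN PGC (49.5 ± 8.32 CPM), MEHP PGC (52.4 ± 5.36 CPM), control PGC (59.3 ± 21.7 CPM), MEHP SC (157 ± 28.3 CPM), VZN SC (184 ± 44.2 CPM) and control SC (422 ± 485 CPM), as mean and SD over 8 libraries, or 7 for control PGC. Among neighbours in this order, control PGC and MEHP SC were the one pair whose ranges did not overlap. The lowest PGC value of miR-107-3p, 33.5 CPM, was close to the smallest listed levels of PGC libraries (18.7 to 37.9 CPM). In library 1 of control PGC F1, where it is blank, the smallest listed level was 30.5 CPM. The mean of control PGC may thus leave out a low value. For miR-103-3p the order was VZN PGC (2402 ± 507 CPM), MEHP PGC (2478 ± 306 CPM), control PGC (2539 ± 538 CPM), VZN SC (3189 ± 391 CPM), MEHP SC (3256 ± 548 CPM) and control SC (4077 ± 1406 CPM), and the ranges of all neighbours overlapped. By median, miR-107-3p stood at 154 CPM in MEHP SC and 180 CPM in VZN SC, against 188 CPM in control SC, and miR-103-3p at 3192 CPM in MEHP SC and 3228 CPM in VZN SC, against 3370 CPM in control SC. Without its 2 high libraries control SC averaged 177 CPM of miR-107-3p, under VZN SC, and 3324 CPM of miR-103-3p, still above MEHP SC and VZN SC.

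Those 2 libraries were described miRNA by miRNA against the median of the other 22 SC libraries. In library 1 of control SC F3, miR-107-3p was at 9.12 times that median, which was 162 CPM, and ranked first of the 355 miRNAs listed in all SC libraries. In library 2 of control SC F1 it was at 5.14 times the median and ranked 2 of 355, behind miR-3968, which was at 7.37 times its median in this library and at 0.361 times in the F3 library. miR-103-3p was at 2.01 times its median in the F3 library and 1.84 times in the F1 library, and ranked 18 and 22. Since miR-103-3p is the more abundant member, these folds correspond to more added CPM than those of miR-107-3p.

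Of all 355 miRNAs, 18 exceeded 2-fold in each of these libraries. In the F3 library, 1 miRNA lay under 0.5 of the median, and in the F1 library 30 did. Within the AGCAGC group miR-195a-5p was also above its median of 28.6 CPM, at 94.2 CPM in the F3 library (3.29-fold) and 134 CPM in the F1 library (4.67-fold). Its highest SC value, 222 CPM, was in neither of these libraries. miR-15a-5p, miR-15b-5p, miR-16-5p and miR-497a-5p lay between 0.995-fold and 1.15-fold in both. miR-322-5p was at 0.842-fold in the F3 library and 1.40-fold in the F1 library, and miR-503-5p at 1.24-fold and 1.38-fold.

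The opposite arm did not stand apart. miR-107-5p, listed in all 24 SC libraries at 50.6 to 106 CPM, was at 89.6 CPM in the F3 library and 93.1 CPM in the F1 library, against a median of 80.3 CPM in the other 22. The F3 library thus held 16.5 counts of miR-107-3p per count of miR-107-5p and the F1 library 8.94, while the other 22 held 1.44 to 3.52. In PGC miR-107-5p was listed in 1 of 24 libraries, library 1 of VZN PGC F2Sy, at 19.2 CPM, which is close to the smallest listed levels of PGC libraries (18.7 to 37.9 CPM).

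**Figure D3:**
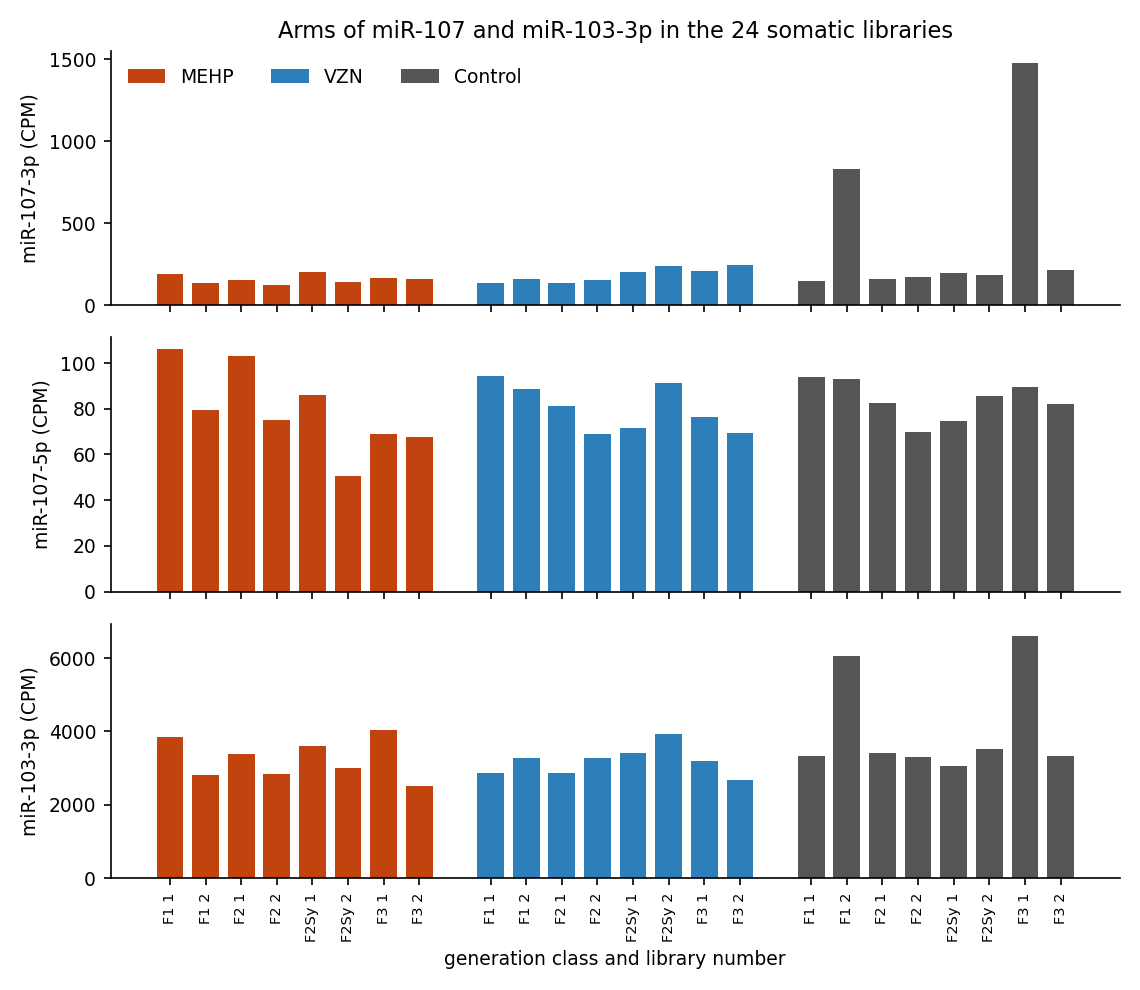
Level in CPM of miR-107-3p (top), miR-107-5p (middle) and miR-103-3p (bottom) in each of the 24 SC libraries, ordered by lineage, generation class and library number, 1 bar per library on an axis from 0. Control F1 library 2 and control F3 library 1 are high for miR-107-3p (833 and 1478 CPM) and miR-103-3p (6061 and 6606 CPM), and within the range of the others for miR-107-5p.

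The markers did not set the 2 high libraries apart in a shared way. Germ cell markers summed to 11515 CPM in the F3 library and 2998 CPM in the F1 library, against 4427 to 17474 CPM in the other 22 SC libraries, so the F1 library was the lowest. Somatic markers (199799 CPM in F3, 203610 CPM in F1), erythroid markers (30674 and 8866 CPM), endothelial markers (24026 and 25766 CPM), leukocyte markers (222 and 211 CPM) and muscle markers (43.5 and 19.5 CPM) lay within the range of the others. Neural markers summed to 229 CPM in the F3 library, and to 649 CPM in the F1 library, above the 79.7 to 353 CPM of the others. The liver miRNA miR-122-5p was blank in both. The part of any of these in the level of the pair was not tested.

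Among somatic cells, exposed lineages had lower mean levels than controls for both members, and the differences of both members shrank without the 2 high control libraries. The comparisons of MEHP and of VZN with control share the control libraries. The fitted log2 fold change of miR-107-3p was -1.09 ± 0.34 for MEHP over control and -0.88 ± 0.34 for VZN over control (SE, mean over 4 classes, no test). Without the 2 high libraries it was -0.19 ± 0.15 for MEHP and 0.00305 ± 0.15 for VZN. For miR-103-3p it was -0.30 ± 0.15 for MEHP and -0.31 ± 0.15 for VZN, and without those libraries -0.06 ± 0.14 and -0.09 ± 0.14.

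By class, miR-107-3p was below control in F1 at -1.65 for MEHP and -1.67 for VZN, and in F3 at -2.35 for MEHP and -1.81 for VZN (log2 fold change). Without the high library of each class these values were -0.06 and 0.01 in F1, and -0.34 and 0.06 in F3. In F2, where no library stood apart, they were -0.27 for MEHP and -0.19 for VZN, and in F2Sy -0.10 and 0.16. Exposed and control libraries of miR-107-3p did not overlap in 4 of 8 class comparisons, with MEHP F2, VZN F2 and MEHP F3 lower than control and VZN F2Sy higher. Over all miRNAs listed in every SC library 33.5% of such comparisons did not overlap. For miR-103-3p they did not overlap in 3 of 8, with VZN lower than control in F1, F2 and F3.

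MEHP and VZN somatic cells, neither of which include a high library, did not differ detectably in the pair. The log2 fold change of MEHP over VZN was 0.02 ± 0.15 for miR-103-3p (SE; edgeR adjusted p = 0.973) and -0.21 ± 0.33 for miR-107-3p (edgeR adjusted p = 0.968). With the high control libraries left out of the shared estimate of spread, the value of miR-107-3p was -0.20 ± 0.13. It is given with no p, since those libraries were picked by their values of this miRNA, which also narrows the SE. Of the 355 miRNAs tested 0% passed, with 5 at an unadjusted p under 0.05, and DESeq2 called 0 as well.

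In germ cells neither disruptor changed the pair detectably. The log2 fold change of miR-103-3p was -0.01 ± 0.16 for MEHP over control (SE; edgeR adjusted p = 0.995), -0.10 ± 0.16 for VZN over control (edgeR adjusted p = 0.935) and 0.09 ± 0.16 for MEHP over VZN (edgeR adjusted p = 0.966). That of miR-107-3p was -0.13 ± 0.20 for MEHP over control (edgeR adjusted p = 0.997), -0.29 ± 0.20 for VZN over control (edgeR adjusted p = 0.94) and 0.15 ± 0.19 for MEHP over VZN (edgeR adjusted p = 0.963). None of the 6 tests reached an unadjusted p under 0.05, and DESeq2 called 0 of 6. Over all 303 miRNAs of the PGC fit 0% passed in each comparison, with 5 for MEHP, 8 for VZN and 13 for MEHP over VZN at an unadjusted p under 0.05 and 0 called by DESeq2. Over the 307 miRNAs of the fit behind miR-107-3p, which left out library 1 of control PGC F1, 0% passed as well, with 4, 5 and 16 at an unadjusted p under 0.05.

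Within single generation classes of PGC, 0 of 16 member tests passed with edgeR, 0 reached an unadjusted p under 0.05 and 0 passed with DESeq2. Over all miRNAs 0.0413% of the tests passed in the fit of 24 libraries and 0.0407% in that of 23. Fitted values of the members ran from -0.51 to 0.53, and the smallest adjusted p was 0.642 (edgeR). Libraries of miR-103-3p did not overlap with control in 3 of 8 comparisons, with MEHP F1 higher and VZN F2 and MEHP F2Sy lower. Those of miR-107-3p overlapped in all 8, with a single control value in F1. Over all miRNAs listed in every PGC library 29.5% of such comparisons did not overlap.

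F2Sy, with both parents from the lineage, was compared with F2 in each exposed lineage. The edgeR test passed for 0 of 8 member comparisons, 0 reached an unadjusted p under 0.05 and DESeq2 called 0. In PGC miR-103-3p differed by -0.16 ± 0.32 for MEHP and 0.21 ± 0.32 for VZN (log2 fold change of F2Sy over F2, SE), and miR-107-3p by -0.06 ± 0.37 and -0.01 ± 0.37. In SC miR-103-3p differed by 0.06 ± 0.30 for MEHP and 0.15 ± 0.30 for VZN, and miR-107-3p by 0.32 ± 0.67 for MEHP and 0.50 ± 0.67 for VZN. With the 2 high control SC libraries out of the shared estimate of spread, the values of miR-107-3p were 0.28 ± 0.27 for MEHP and 0.49 ± 0.27 for VZN. Both are given with no p, since those libraries were picked by their values of this miRNA. Over all miRNAs 0.165% of the PGC tests of 24 libraries, 0.163% of those of 23 and 0.141% of the SC tests passed.

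**Figure D4:**
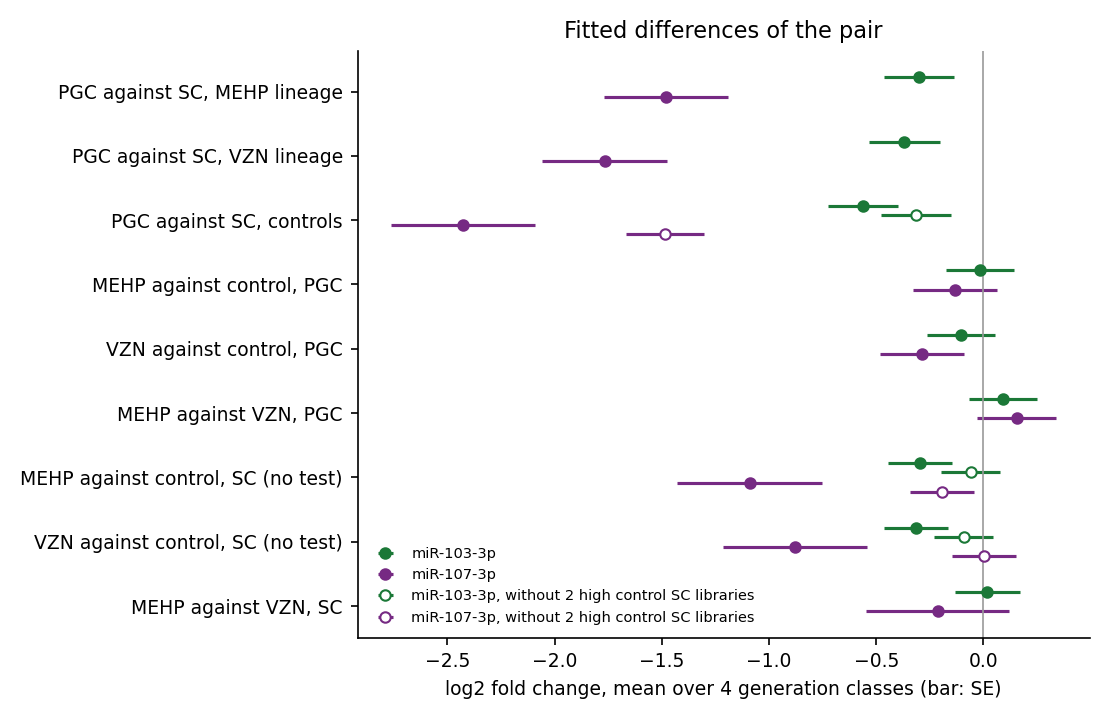
Fitted log2 fold change with SE of miR-103-3p (green) and miR-107-3p (purple) for 9 comparisons, each a mean over 4 generation classes; open symbols leave out the 2 high control SC libraries. The fractions differ most for miR-107-3p (-1.48 to -2.43), germ cell comparisons lie near 0, and the somatic differences from control shrink to -0.19 and 0.00305 for miR-107-3p without those libraries.

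The 2 libraries of a group differed to an extent that varied between groups. For miR-103-3p library 1 and library 2 differed 1.01-fold to 2.12-fold over the 12 PGC groups and 1.03-fold to 1.99-fold over the 12 SC groups. For miR-107-3p they differed 1.01-fold to 2.48-fold over 11 PGC groups. In SC they differed 6.96-fold in control F3 and 5.75-fold in control F1, and at most 1.44-fold in the other 10 groups. The largest PGC gap of miR-103-3p was in control F1, where library 1, the one with the blank miR-107-3p, held 0.463 of the median of the other 23 PGC libraries. In that library miR-103-3p ranked 5 from the lowest of 303 miRNAs, and the muscle miRNA miR-206-3p was at 3.04 times its median. Of the 3 muscle markers only miR-206-3p was listed there. The muscle sum of 368 CPM lay within the 50.0 to 537 CPM of the other 23 PGC libraries.

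The rest of the AGCAGC group did not share one direction between germ and somatic cells. Of its 7 members besides the pair, 3 passed as higher in PGC and 2 as lower in the MEHP lineage, 2 and 2 in the VZN lineage, and 3 and 2 in controls (edgeR adjusted p under 0.05). Over all 251 miRNAs 44.6% were higher and 42.6% lower in the MEHP lineage, 38.6% and 42.6% in the VZN lineage, and 41.8% and 42.2% in controls. The median log2 fold change of the 7 was 0.51 in MEHP, 0.15 in VZN and 0.35 in controls, beside 0.06, 0.12 and 0.09 over all 251. The members of the 7 that fell were miR-322-5p and miR-503-5p, neighbours in a cluster on the X chromosome known to slow the cell cycle.

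miR-322-5p held 3711 to 14439 CPM in PGC and 36641 to 102991 CPM in SC, and its log2 fold change was -3.32 ± 0.18 in MEHP, -3.02 ± 0.18 in VZN and -3.50 ± 0.19 in controls (SE). miR-503-5p held 30.7 to 168 CPM in PGC and 743 to 1447 CPM in SC, with -3.96, -3.73 and -4.12. Their germ cell and somatic libraries did not overlap. miR-16-5p, a repressor of cyclins and of the survival factor BCL2 in human cells, was higher in PGC, at 29213 to 39860 CPM in PGC and 12230 to 20471 CPM in SC, with 1.41, 1.19 and 1.37. miR-497a-5p was higher by 1.04, 1.19 and 1.13. miR-15a-5p was higher by 0.51 in MEHP and 0.35 in controls, and its 0.15 in VZN did not pass. miR-15b-5p (0.06, 0.13 and 0.06) and miR-195a-5p (0.74, 0.60 and 0.60) did not pass in any lineage. Between exposures in PGC, and for MEHP over VZN in SC, 0 of the 7 passed with edgeR or DESeq2, and 1 reached an unadjusted p under 0.05, for MEHP over VZN in PGC.

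**Figure D5:**
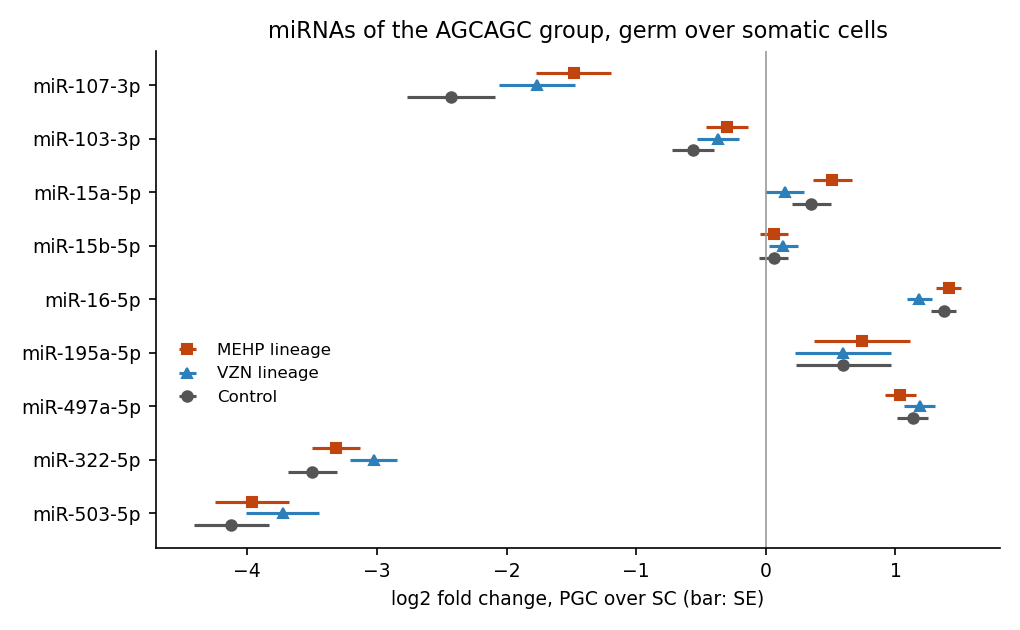
log2 fold change in PGC over SC, with SE, of the 9 listed members of the AGCAGC group in the MEHP lineage, the VZN lineage and controls. miR-322-5p, miR-503-5p and miR-107-3p lie well below 0 in all 3, miR-103-3p slightly below, and miR-16-5p and miR-497a-5p above.

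Because miR-107 is a p53 target in human cells, miRNAs known to respond to p53, mostly from work in human cells, were read beside it. Of 11 named, 9 are in the table and 7 could be tested between fractions. These 7 include both arms of miR-34c, miR-34c-5p and miR-34c-3p, and so are not all independent of each other. In PGC 1 was higher and 6 were lower than in SC in the MEHP lineage, 1 and 6 in the VZN lineage and 1 and 5 in controls, with a median log2 fold change of -0.66, -0.64 and -0.66 beside 0.06, 0.12 and 0.09 over all miRNAs. The share of all miRNAs called lower was 42.6%, 42.6% and 42.2%, and called higher 44.6%, 38.6% and 41.8%. miR-34a-5p, a direct p53 target that lowers cell cycle genes, was the one that was higher, at 3048 to 7333 CPM in PGC and 1069 to 2540.4 CPM in SC. Its log2 fold change was 1.32 ± 0.15 in MEHP, 1.41 ± 0.15 in VZN and 1.32 ± 0.15 in controls. miR-143-3p, a smooth muscle and stromal miRNA whose maturation p53 promotes in human cells, held 579 to 2563 CPM in PGC and 6397 to 14416 CPM in SC, with -2.67, -2.95 and -2.87. miR-34b-3p was lower in PGC, with -0.81, -0.62 and -0.39, and so was miR-192-5p, with -0.54, -0.53 and -0.66. Between exposures 0 of 7 passed in PGC and 0 of 9 for MEHP over VZN in SC, with edgeR or DESeq2, and 0 reached an unadjusted p under 0.05.

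Across libraries, likeness to a member was measured as Pearson's r of log2 CPM within a fraction, among miRNAs listed in every library used. These are descriptions over libraries that share groups and totals. Over all 24 SC libraries the miRNA most like each member of the pair was the other one, at r = 0.86 and Spearman's rho = 0.56. Without the 2 high libraries r was 0.37 and rho 0.43 over 22 libraries, and miR-107-3p ranked 55 of 359 by likeness to miR-103-3p, while miR-103-3p ranked 73 of 359 by likeness to miR-107-3p. The first rank thus rested on those 2 libraries. miR-107-3p and miR-107-5p, cut from one hairpin, had r = 0.25 over 24 SC libraries and 0.07 over 22.

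After its partner, miR-103-3p was most like miR-130a-3p (r = 0.59), miR-674-3p (0.58), miR-345-5p (0.58) and miR-106b-3p (0.56) in SC, and least like miR-467c-5p (-0.52), miR-26a-5p (-0.52) and miR-340-3p (-0.51). miR-107-3p was most like miR-874-3p (0.68), miR-186-5p (0.67), miR-674-3p (0.66) and miR-130a-3p (0.66), and least like miR-467c-5p (-0.53), miR-3099-3p (-0.52) and miR-130b-5p (-0.51). Without the 2 high libraries none of these remained among the 5 most like miR-107-3p, which were then miR-500-3p (0.80), miR-296-5p (0.72), miR-291a-3p (0.67), miR-30b-5p (0.65) and miR-370-3p (0.65). For miR-103-3p miR-345-5p remained, at 0.74, followed by miR-15b-5p (0.71), miR-27a-5p (0.64), miR-503-3p (0.63) and miR-337-5p (0.61).

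Over 24 PGC libraries miR-103-3p was most like miR-205-5p (r = 0.70), miR-17-3p (0.64), miR-181c-5p (0.61), miR-345-5p (0.61) and miR-92a-1-5p (0.57), and least like miR-30a-3p (-0.65), miR-872-5p (-0.64) and miR-499-5p (-0.61). Over 23 PGC libraries miR-107-3p was most like miR-676-5p (0.69), miR-30b-5p (0.57), miR-361-5p (0.53), miR-152-3p (0.52) and miR-150-5p (0.51), with miR-103-3p at 0.46 and rank 9. It was least like miR-350-3p (-0.55), miR-138-5p (-0.42) and miR-182-5p (-0.42). In germ cells the pair thus had a positive but not the closest likeness.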

How the data were processed

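Small RNAs under 100 bases were sequenced, and the authors deposited whole-number read counts of 563 mature miRNAs in 48 libraries, canonical forms and isomiRs summed per the file headers. The submitters' processing notes name Bowtie 1.3.1 and genome build mm39. The assignment of reads shared by the pair and the rule for blank cells are not stated in the sources used here. Sequences and coordinates are of GRCm38, a different build, taken from RefSeq and GENCODE by name.

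The members, lists and tests were chosen with earlier results of these data known. The count test was edgeR's two-sided quasi-likelihood test (edgeR 4.0.16, R 4.3.3), run robustly with TMM scaling after filterByExpr (Benjamini-Hochberg adjustment over all miRNAs of the fit, calls at an adjusted p under 0.05). One fit covered all 24 groups for the fractions and one the 12 groups of a fraction for the exposures, and contrasts are means over the 4 generation classes. The edgeR test gives no SE. The SE shown is the absolute log2 fold change divided by the square root of its F statistic. Each fit used miRNAs listed in all its libraries, 251 of both fractions, 303 of PGC and 355 of SC. The design had assumed a complete table; since miR-107-3p is blank in library 1 of control PGC F1, its values with PGC come from fits of 47 or 23 libraries (254 and 307 miRNAs), a choice made after seeing the data. The fits were tested on simulated counts in which 50 miRNAs changed by a log2 of 1.5. For MEHP against control in PGC 50 were recovered with 1 false call, and for the fractions in controls 50 with 2. All simulated miRNAs had the same spread and, apart from the 50, the same mean in every group. In the data 211 of 251 miRNAs were called between the fractions in controls, and spread varied between miRNAs. The simulated counts therefore do not give the error rate of the reported fits. Smaller changes and single outlying libraries were not simulated.

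Alternatives were RLE factors, library size alone, DESeq2 1.42.0, blanks as 0 with no filter, blanks at the smallest listed count, only the groups compared, all 48 libraries, the replicate number as a block, and each library left out in turn. Leaving out both high control SC libraries was added after seeing the data. Named miRNAs are the pair, the listed AGCAGC group, miR-107-5p, the 4 p53-responsive miRNAs with the highest mean CPM, and the 5 most and 3 least like each member; miR-3968, miR-206-3p and the markers were named after their values were seen. PCR reads are not independent molecules.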

Additional observations from a re-analysis of the deposited data

Results flagged for a closer look

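Among the 8 control PGC libraries, miR-103-3p in library 1 of F1 stood apart at 1240.9 CPM, with a gap to the next library that was 0.755 of the group's range. Of 24 such sets examined 1 was set apart, and chance sets apart about 1 in 20. In PGC, miR-103-3p of both MEHP libraries lay above both control libraries in F1 (log2 fold change 0.53) and below both in F2Sy (-0.35). The F1 value was 0.095 in the fit without library 1 of control PGC F1. In SC, miR-107-3p of both VZN libraries lay above both control libraries in F2Sy (0.16) and below both in F2 (-0.19). The differences between these classes were not tested. Over all miRNAs listed in every library of the fraction, 29.5% of such class comparisons did not overlap in PGC and 33.5% in SC.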

How the results depend on the processing

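The lower miR-107-3p in PGC passed under every alternative in the MEHP and VZN lineages. Over alternatives and left-out libraries its values were -1.66 to -1.36 in MEHP and -1.93 to -1.63 in VZN. In controls they were -2.85 to -1.49, given with no p because the high control SC libraries were known when the pair was chosen. Library size alone moved the median of all miRNAs by -0.11 in the control fractions. For miR-103-3p in PGC over SC, the MEHP lineage passed with library size alone (-0.40), blanks as 0 (-0.48) and blanks at the smallest listed count (-0.45). The VZN lineage no longer passed with RLE factors (-0.30), DESeq2 (-0.30), only the groups compared (-0.36) or in 14 of 17 fits without 1 library (-0.37 to -0.16; all 17 from -0.53 to -0.16); the calls without VZN PGC F1 library 2, VZN PGC F2Sy library 1 and VZN SC F2 library 1 held. In controls, given with no p, miR-103-3p in PGC over SC was -0.56 with all libraries and -0.32 without both high control SC libraries. Without those libraries miR-107-3p in SC was -0.19 for MEHP and 0.00305 for VZN over control; single left-out libraries gave -1.29 to -0.59 for MEHP and -1.08 to -0.37 for VZN. In PGC, MEHP over control changed sign for miR-107-3p with blanks as 0 (0.12) and over left-out libraries (-0.26 to 0.074), and for miR-103-3p over left-out libraries (-0.12 to 0.15), as did VZN over control (-0.22 to 0.058) and MEHP over VZN in SC (-0.034 to 0.082). The cause was not tested. The number of miRNAs called between fractions was 211 in controls, 219 in MEHP and 204 in VZN, with blanks as 0 407, 404 and 389, and with blanks at the smallest count 482 or more in each, where more miRNAs were tested. Over all miRNAs, the 0 calls became 1 for MEHP over control without MEHP PGC F1 library 2, 7 for VZN over control and 5 for MEHP over VZN without VZN PGC F2Sy library 2, 3 for MEHP over VZN without VZN PGC F2Sy library 1, and 15 for MEHP over VZN in SC without MEHP SC F3 library 2. Within a fraction, differences between library 1 and library 2 were compared between groups. Their r had both signs, from -0.53 to 0.56 in PGC (median 0.041) and -0.40 to 0.55 in SC (median 0.067). Pools were split into PGC and SC, but the labels do not say which libraries share a pool. That pairing was not examined, and the tests between fractions treat the libraries as separate. With the replicate block no call of the pair changed. The control values, given with no p, were then -2.42 for miR-107-3p and -0.56 for miR-103-3p. A group left with 1 library was assumed to vary like the others, and miR-107-3p could not be fitted without control PGC F1 library 2.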
